A study of Mus musculus with 8 samples.

Results

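The genes described here are 34 that encode RNA polymerase I with its initiation factors and the nucleolar proteins that modify, cut and assemble ribosomal RNA (rRNA). They are a fixed list of names, made with earlier results of these data known although the rule itself uses no measured value, and are 34 of the 18193 gene symbols that the arrays name. All 34 were measured above the minimum signal, on 62 tested probe sets. They were compared between E14.5 fetal livers of 4 wild type (WT) and 4 Eklf-/- (KO) mouse embryos, 1 array per embryo. The livers were not cultured. The knockout is homozygous, in B6 mouse lines made with an engineered BAC and E2A-Cre mice. EKLF, also called KLF1, is an erythroid transcription factor that binds CACCC motifs, and the study asked which genes depend on it in this tissue, where erythroblasts are the main cells.

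Ribosome biogenesis starts in the nucleolus, where RNA polymerase I transcribes one long precursor of the 18S, 5.8S and 28S rRNAs. Small nucleolar ribonucleoproteins (snoRNPs) place methyl groups (box C/D) and pseudouridines (box H/ACA) on that precursor, and assembly factors then cut it and fold it into the small and the large ribosomal subunit. Early erythroid precursors are known for abundant nucleoli and ribosomes, which they need for globin synthesis, and lose both as they mature. Inherited defects of ribosome production cause anemias in people.

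Signals are log2 of the deposited MAS5.0 intensities, and a difference is KO minus WT on that scale. A probe set was tested where the mean of WT or of KO was above a signal of 100, and called at a limma adjusted p under 0.05 (Benjamini-Hochberg over 23379 tested probe sets). Each gene is given by its brightest tested probe set unless stated otherwise. Klf1 itself fell from 13.95 ± 0.076 to 10.65 ± 0.11 (SD, n = 4 per genotype). Its two-sided exact permutation p was 0.029, which is the lowest possible over the 70 ways to split 8 arrays. The sources do not say whether its 1 probe set lies in the deleted part, and one outside it would check nothing. The 2% trimmed mean was 500.0 on every array, but medians ranged over 79.5 to 84.1 in WT against 96.7 to 114.0 in KO, and the highest signal 54914 to 60411 against 32642 to 39185. WT replicate 1 stood apart in a sex-linked gene, with an Xist log2 signal of 13.03 against 5.37 to 6.84 on the other 7 arrays. The labels carry one code for all WT and another for all KO arrays, and do not say what the codes stand for, so anything they mark cannot be told apart from genotype.

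Of the 34 genes, 14 (41.2%) were lower in KO, 0 were higher and 20 were not called at the deposited scaling, whereas scaling to the hybridisation controls gave 0 lower and 15 higher. At the deposited scaling 21.0% of all 11292 tested genes were called lower and 25.6% higher. With the hybridisation controls 280 of these 11292 were lower and 8392 higher. The median difference was -0.29 over the 34 genes and 0.060 over all tested genes. Nhp2, Ebna1bp2 and Dkc1 had the largest falls, 1.86-fold, 1.81-fold and 1.70-fold, and the falls of the 14 called genes ranged down to 1.24-fold for Wdr43. In 11 genes (32.4%) all KO arrays were below all WT arrays, against 20.9% of all tested genes, and in 2 genes above, Nob1 and Pes1, against 24.4% of all. In this bulk tissue, fewer cells of a type and less RNA per cell cannot be told apart.

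**Figure D1:**
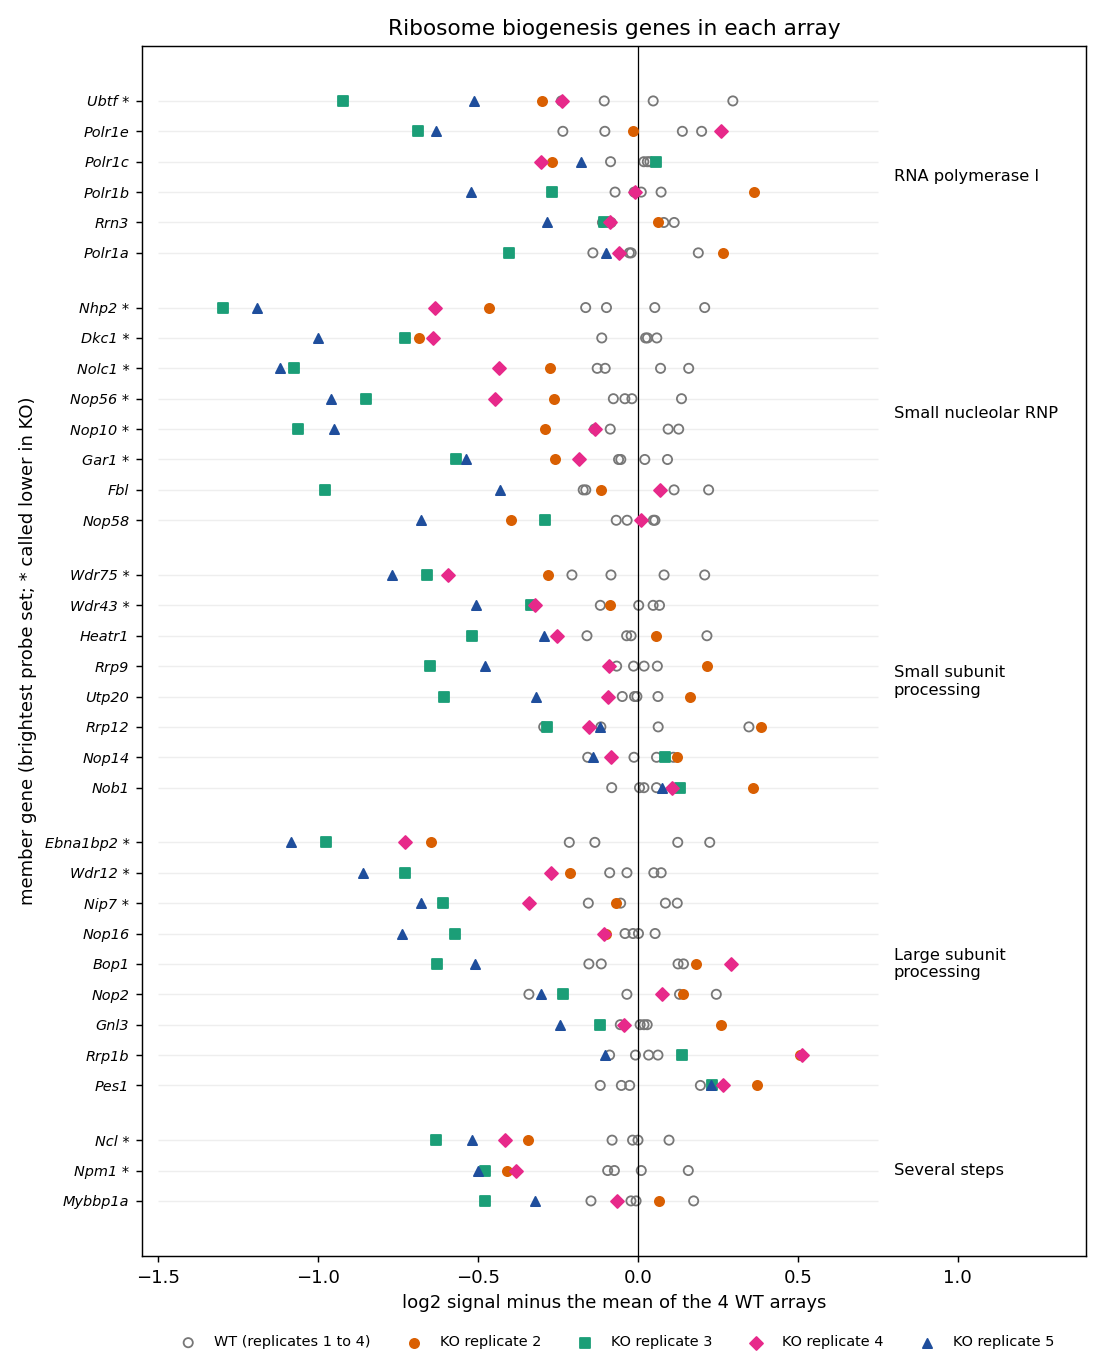
Log2 MAS5.0 signal of the brightest probe set of each of the 34 genes on each array, as the difference from the WT mean (x axis), with genes grouped by step (y axis), 4 WT and 4 KO arrays as points and called genes marked. The 14 called genes were all lower in KO at the deposited scaling, with Nhp2 and Ebna1bp2 farthest to the left by mean. The snoRNP group had the lowest median of the groups. Scaling to the hybridisation controls moves each difference of means up by 0.78.

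The share of genes that passed is given by step, at the deposited scaling. In the snoRNP group 6 of 8 were lower, with a median difference of -0.62. In the other groups 1 of 6 was lower for RNA polymerase I and its initiation factors (median -0.14), 2 of 8 for small subunit processing (-0.23), 3 of 9 for large subunit processing (-0.17) and 2 of 3 for the nucleolar proteins of several steps (-0.44). Among all tested genes 21.0% were lower, and the shares for RNA polymerase I and for small subunit processing were near that. Differences between the groups were not tested.

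Which scaling is used decides the sign of these medians, so each was also set against the median of all tested genes under the same scaling. That median moved from 0.060 to -0.088 with quantile normalization, -0.20 with the 75th percentile, 0.84 with the hybridisation controls and 0.27 with the poly-A controls. Against it the 34 genes lay at -0.35 under the deposited, 75th percentile and both control scalings, and at -0.22 after quantile normalization. The 75th percentile and control scalings subtract a constant from each array, which cannot move such a value. Only quantile normalization could change it. The snoRNP group lay at -0.68, and at -0.28 after quantile normalization. RNA polymerase I genes lay at -0.20, small subunit factors at -0.29 and large subunit factors at -0.23 at the deposited scaling. After quantile normalization they lay at -0.20, -0.25 and -0.19, in this order. The snoRNP group thus lay nearer to these groups than at the deposited scaling. Proteins of several steps lay at -0.50, but at 0.084 after quantile normalization.

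**Figure D2:**
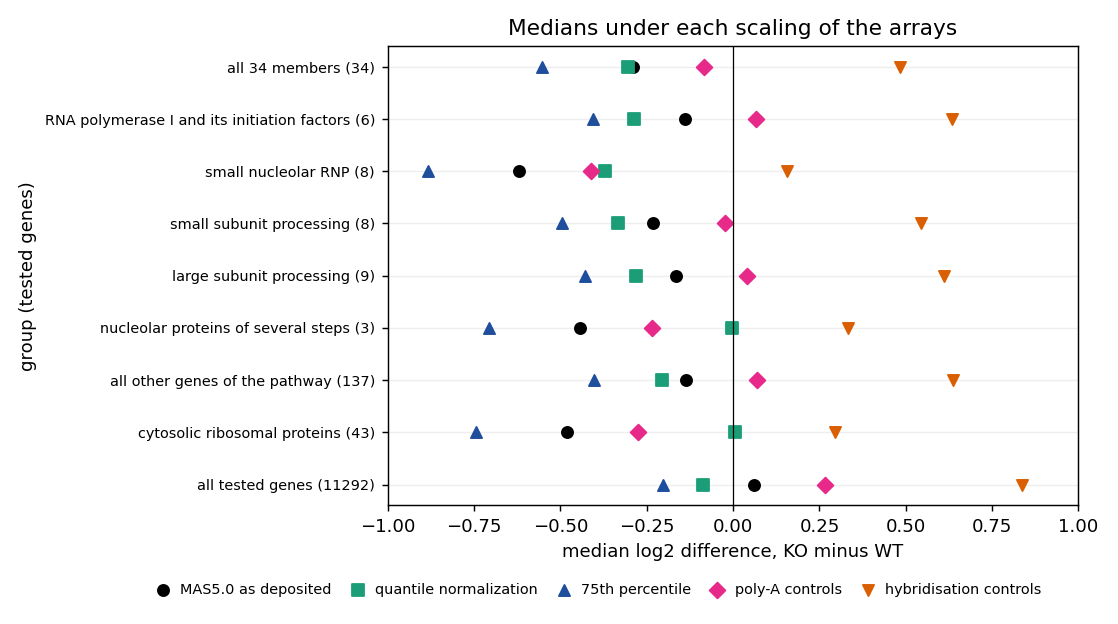
Median KO minus WT log2 difference (x axis) of each step, the 137 other tested genes of the pathway, cytosolic ribosomal proteins and all tested genes (y axis) under the deposited scaling and 4 alternatives. The median of the 34 genes moves from -0.29 to 0.48 when the hybridisation controls are used. Quantile normalization lowers some medians and raises others, and the snoRNP median stays below that of all tested genes. The other alternatives shift all genes alike and cannot change that order.

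Among the snoRNP proteins, all 4 of the box H/ACA particle passed at the deposited scaling. Nhp2, a core protein of that particle and of telomerase, had log2 signals of 13.26, 13.11, 13.42 and 13.05 in WT replicates 1 to 4 and of 12.74, 11.91, 12.58 and 12.02 in KO replicates 2 to 5. Every KO array was below every WT array, with KO replicates 3 and 5 lowest. The difference was -0.90 (SE 0.20, limma adjusted p = 0.0056), and Nhp2's other probe set gave -1.10 (limma adjusted p = 6.9e-04). Dkc1 encodes dyskerin, the pseudouridine synthase of the particle, and is X-linked. Its signals were 12.35, 12.35, 12.21 and 12.38 in WT and 11.64, 11.59, 11.68 and 11.32 in KO, a difference of -0.76 (SE 0.11, limma adjusted p = 6.1e-04). The groups did not overlap, and without WT replicate 1, the array with a high Xist signal, the difference was -0.75. Dkc1's other probe sets gave -0.47 (limma adjusted p = 0.043) and -0.068 (limma adjusted p = 0.74). Whether Dkc1 was called lower, and by how much it differed, thus depended on the probe set.

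Nop10, a small protein that holds the H/ACA core together, differed by -0.61 (SE 0.22, limma adjusted p = 0.041) with 1 KO array inside the WT range, and its other probe set by -0.70 (limma adjusted p = 0.011). Gar1, which helps the particle release its substrate, differed by -0.39 (SE 0.12, limma adjusted p = 0.023). Within arrays, the Nhp2 signal minus that of Gar1 changed by -0.51 and minus that of Nop10 by -0.29 (exact permutation test, two-sided, p = 0.029 for each, 0.11 after adjustment over 12 pairs of partners). No pair passed after adjustment, so unequal falls of these partners were not shown.

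Nolc1, a chaperone that binds both kinds of snoRNP, was called on its brightest probe set (-0.73, SE 0.21, limma adjusted p = 0.017) and not on the others (-0.45 and -0.34). For the box C/D particle, Nop56, a scaffold protein, differed by -0.63 (SE 0.16, limma adjusted p = 0.011). Nop56's other probe set gave -0.40 and was not called (limma adjusted p = 0.067). Nop58, the partner of Nop56, differed by -0.34 (limma adjusted p = 0.079). Fibrillarin (Fbl), the methyltransferase, differed by -0.36 (limma adjusted p = 0.20), and neither Nop58 nor Fbl passed. For Fbl, 3 KO arrays read 12.70 to 13.20 and KO replicate 3 read 12.16, against 12.96 to 13.36 in WT. At the poly-A control scaling 2 of these 8 genes stayed lower, Dkc1 and Nhp2, and at the hybridisation control scaling 0.

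Of the RNA polymerase I genes, Ubtf was the 1 called. It encodes UBF, the factor that keeps rRNA genes open and recruits the polymerase. Its signals were 10.59, 10.72, 11.12 and 10.87 in WT and 10.53, 9.90, 10.59 and 10.31 in KO. KO replicate 4 reached the lowest WT array, so the groups met, and the difference was -0.49 (SE 0.18, limma adjusted p = 0.045). Ubtf's other probe set separated the groups fully, at -0.68 (limma adjusted p = 0.0054). Both differences turn positive at the hybridisation control scaling, where the brightest probe set gave 0.28.

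The polymerase subunits were not called. The differences were -0.075 for Polr1a, the largest subunit, -0.11 for Polr1b, which completes the catalytic centre, -0.17 for Polr1c, which RNA polymerase III also uses, and -0.27 for Polr1e, with limma adjusted p of 0.70, 0.63, 0.21 and 0.34. Rrn3, the factor that brings the polymerase to the promoter, differed by -0.10 (limma adjusted p = 0.45). For all 5, WT and KO arrays overlapped. A dimmer Polr1a probe set went from 7.46 ± 0.63 to 8.23 ± 0.095 (SD, n = 4 per genotype), a rise of 0.77 (limma adjusted p = 0.044).

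The array also carries control probe sets for 18S rRNA, a product of RNA polymerase I. On the one nearest the 3′ end, WT arrays read 12.38 to 12.60 and KO arrays 7.99 to 8.56 in log2 signal. The middle probe set went from 11.61 ± 0.11 to 8.19 ± 0.38 and that near the 5′ end from 11.59 ± 0.16 to 7.54 ± 0.47 (SD, n = 4 per genotype). The differences were -4.24, -3.42 and -4.04, each with groups fully apart (exact permutation test, two-sided, p = 0.029). This gap is far larger than any shift between scalings. How much rRNA was carried into the labelled sample was not measured, and its part in these signals was not tested.

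Small subunit processing held 2 called genes, Wdr75 and Wdr43, both members of the UTP complexes that bind the growing precursor first. Wdr75 read 11.68, 11.96, 12.09 and 11.80 in WT and 11.60, 11.22, 11.29 and 11.11 in KO, with no overlap. The difference was -0.57 (SE 0.14, limma adjusted p = 0.0088). Wdr43 read 10.83, 10.95, 11.01 and 10.99 in WT and 10.86, 10.61, 10.62 and 10.44 in KO. KO replicate 2 lay within the WT range of Wdr43 and the other 3 KO arrays below it, for a difference of -0.31 (SE 0.11, limma adjusted p = 0.045). Wdr43's other probe set, gave 0.0069 and was not called.

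Wdr75 was also the 1 gene of the 34 with probe sets called in opposite directions. Its dimmer probe set read 6.87, 6.91, 6.87 and 6.34 in WT and 8.29, 8.30, 8.22 and 8.02 in KO, a rise of 1.46 (SE 0.15, limma adjusted p = 9.8e-05). The 2 probe sets of this gene separated the groups fully and in opposite senses. Which transcripts each one reads was not tested.

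The other small subunit factors were not called on their brightest probe set. Rrp9, the protein of the U3 snoRNP, differed by -0.25, Utp20 by -0.21, Heatr1, a UTP scaffold also needed for rRNA transcription, by -0.25, and Rrp12, an export factor, by -0.042. Nop14 lay at -0.0044, with WT at 9.90 ± 0.12 and KO at 9.89 ± 0.13 (SD, n = 4 per genotype). Nob1, the endonuclease that makes the mature 3′ end of 18S rRNA, was at 0.17 (limma adjusted p = 0.19), with every KO array above every WT array. Heatr1 had 2 dimmer probe sets that rose, by 1.02 (7.31 to 8.33, limma adjusted p = 8.4e-04) and, against a WT mean below a signal of 100, at least 2.32-fold (limma adjusted p = 0.0011). The latter probe set entered the test only through its KO mean, so the filter fixed the direction of its call.

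In large subunit processing 3 genes were lower. Ebna1bp2, a partner of nucleolar assembly factors, read 11.90, 12.24, 12.34 and 11.98 in WT and 11.47, 11.14, 11.39 and 11.03 in KO, a difference of -0.86 (SE 0.15, limma adjusted p = 0.0014). Wdr12 read 11.38, 11.27, 11.35 and 11.21 in WT and 11.09, 10.57, 11.03 and 10.44 in KO, a difference of -0.52 (SE 0.16, limma adjusted p = 0.024). For both genes the groups were apart, and for Wdr12 KO replicates 3 and 5 were the lowest. Wdr12's other tested probe set, a dimmer one, gave 0.16 and was not called (limma adjusted p = 0.58). Nip7, which acts in 60S maturation, differed by -0.42 (SE 0.15, limma adjusted p = 0.042). Nip7's dimmer probe set gave -0.11 and was not called (limma adjusted p = 0.57). Ebna1bp2 kept its negative sign at each scaling tried, down to -0.083 with the hybridisation controls, whereas Wdr12 and Nip7 were positive there.

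Wdr12 works in the PeBoW complex with Pes1 and Bop1, which is needed for 28S and 5.8S rRNA formation. Pes1 read 10.32, 10.57, 10.35 and 10.26 in WT and 10.75, 10.61, 10.64 and 10.60 in KO, a difference of 0.27 that did not pass (limma adjusted p = 0.051) although no arrays overlapped. Bop1 differed by -0.17 (limma adjusted p = 0.55). Within arrays, Pes1 minus Wdr12 lay between -1.05 and -0.70 in WT and between -0.39 and 0.16 in KO, a change of 0.79 that no scaling by a constant can move. With 4 arrays a side its exact permutation p was 0.029, and 0.11 after adjustment over the 12 pairs. A Bop1 probe set near background in WT entered the test only through its KO mean, so the filter fixed the direction of its call. It was at least 1.36-fold higher in KO (limma adjusted p = 1.3e-05).

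Among the rest of the large subunit factors, Nop16 differed by -0.38 (limma adjusted p = 0.073) with every KO array below every WT array. Nop2, an rRNA methyltransferase, differed by -0.080 and Gnl3 (nucleostemin), a GTPase of proliferating cells, by -0.037, with limma adjusted p of 0.69 and 0.82. Rrp1b was at 0.26 (limma adjusted p = 0.17), and a dimmer probe set of it rose by 0.47 (limma adjusted p = 0.041).

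Of the nucleolar proteins that act in several steps, 2 of 3 were lower at the deposited scaling. Ncl encodes nucleolin, an abundant rRNA-binding protein, and read 14.60, 14.52, 14.70 and 14.58 in WT and 14.26, 13.97, 14.18 and 14.08 in KO, a difference of -0.48 (SE 0.10, limma adjusted p = 0.0045). Npm1 encodes nucleophosmin, a chaperone of ribosome assembly and export, and read 14.95, 15.04, 15.18 and 14.93 in WT and 14.62, 14.55, 14.64 and 14.52 in KO, a difference of -0.44 (SE 0.098, limma adjusted p = 0.0053). Neither gene's groups overlapped at the deposited scaling, but after quantile normalization the differences were -0.023 for Ncl and 0.072 for Npm1 and neither was called. These are signals near the top of the arrays, where the WT and KO ranges differ most. Of Ncl's other 4 probe sets 2 were lower (-0.45 and -1.01) and 2 not called. Npm1's other probe set gave -0.23 and was not called (limma adjusted p = 0.14). Mybbp1a, a repressor of rRNA transcription, differed by -0.20 (limma adjusted p = 0.26), while its dimmer probe set rose by 0.54 (limma adjusted p = 0.012).

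**Figure D3:**
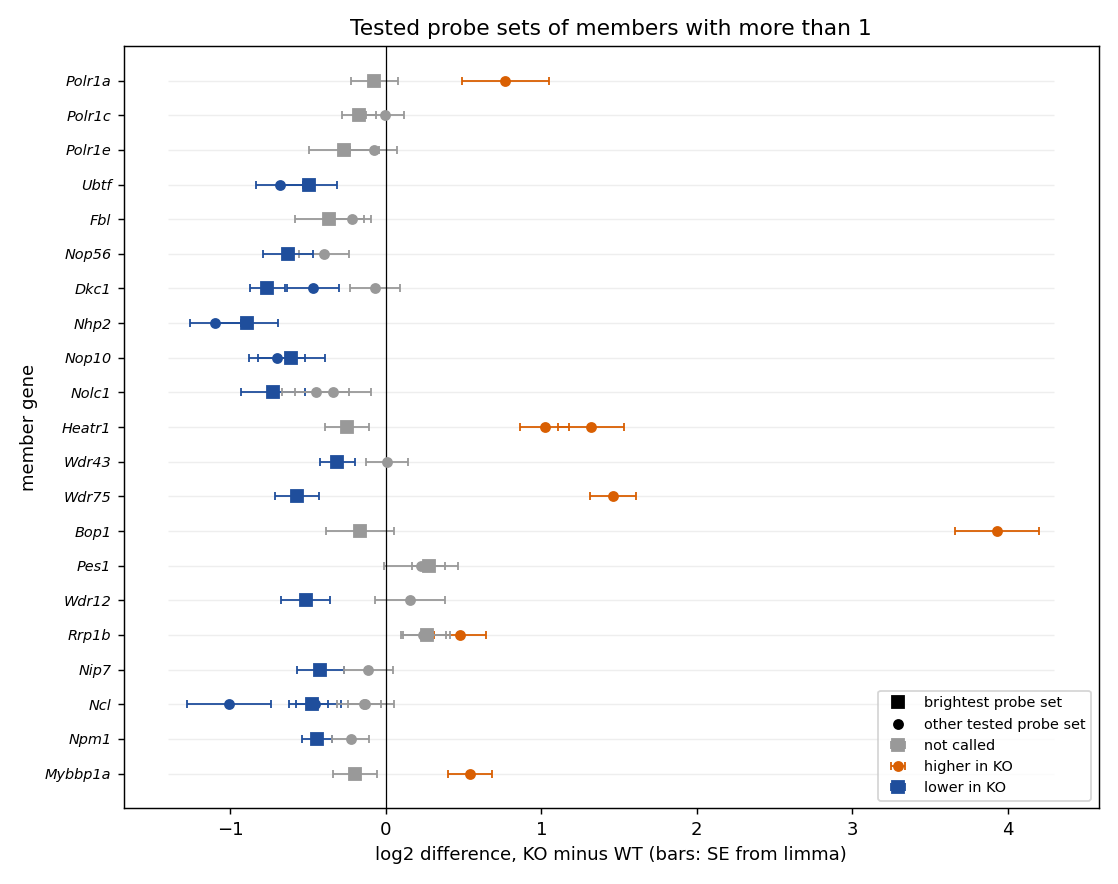
KO minus WT log2 difference (x axis, bars the SE from limma) of each tested probe set of the 21 genes with several (y axis), squares for the brightest and circles for the others, coloured by call. At the deposited scaling the 7 probe sets called higher are all circles. Of these, that of Bop1 and 1 of Heatr1 have a WT mean below a signal of 100 and were tested only through their KO mean.

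Over all 62 tested probe sets of these genes, 20 were lower, 7 higher and 35 not called, against 17.7% lower and 34.4% higher of all tested probe sets. The 7 higher ones belong to Polr1a, Heatr1 (2), Wdr75, Bop1, Rrp1b and Mybbp1a, and none is the brightest of its gene. Of 21 genes with several tested probe sets, 7 had the same call on all. The brightest probe set of 8 genes has an identifier ending in _s_at or _x_at, which marks probes shared between transcripts or genes, and they include those of Nhp2, Dkc1, Nop56, Gar1 and Wdr43.

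The KO arrays did not fall evenly. The median of the 34 genes relative to the WT mean was -0.078 in KO replicate 2, -0.57 in 3, -0.12 in 4 and -0.51 in 5, against -0.055 to 0.089 in the WT arrays. Over all tested genes the same medians were 0.063, 0.018, 0.063 and 0.064, on arrays that share a trimmed mean. The hybridisation controls read 11.38, 11.60, 11.12 and 11.36 in log2 signal on KO replicates 2 to 5, and the poly-A controls 6.42, 6.82, 6.60 and 6.82. The poly-A controls were thus highest on the KO arrays where these genes were lowest, and their part in the gap was not tested. The snoRNP medians were -0.28, -0.91, -0.31 and -0.96. The lowest KO array was replicate 5 for 19 genes, replicate 3 for 14, replicate 4 for 1 and replicate 2 for 0, where each array was the lowest for 23.4% to 28.5% of all tested genes.

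Counted array by array, 15 of the 34 genes (44.1%) lay below every WT array in KO replicate 2, 26 (76.5%) in replicate 3, 17 (50%) in replicate 4 and 28 (82.4%) in replicate 5. For all tested genes these shares were 32.4%, 38.6%, 33.9% and 36.5%. In KO replicate 2, 11 of the 34 genes lay above every WT array (32.4%), as 40.4% of all tested genes did. The proteins of several steps varied less, with medians of -0.34, -0.48, -0.38 and -0.50 in the 4 KO arrays. The SD among KO arrays exceeded that among WT arrays for 30 of the 34 genes, with medians of 0.276 and 0.115, while over all tested genes it did so for 72.1%, with medians of 0.221 and 0.136. The count of 14 lower genes was 9 without WT replicate 1 and 8 without WT replicate 3, KO replicate 3 or KO replicate 5.

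**Figure D4:**
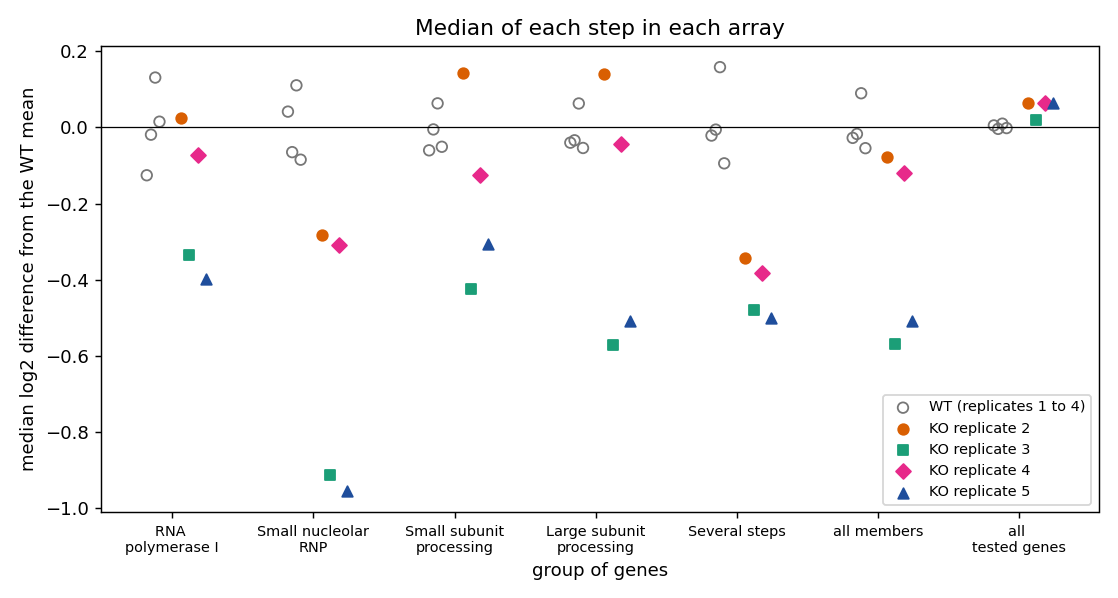
Median difference from the WT mean in log2 signal (y axis) for each step, the 34 genes and all tested genes (x axis), with 1 point per array (open for WT, filled for KO). KO replicates 3 and 5 lie lowest, at -0.57 and -0.51 over the 34 genes at the deposited scaling, while the medians of all tested genes lie between 0.018 and 0.064 in KO.

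Promoters are shown because the knocked-out factor binds CACCC and because the E-box CACGTG, the site of MYC, a known activator of these genes, can be read in them. The RefSeq promoter table used here (GRCm38.p6, 250 bases before to 50 after a start) matched 30 of the 34 genes. Promoters of Bop1, Rrp12, Fbl and Npm1 were not analysed here. CACCC, searched on both strands, was in 25 of the 38 member promoters (65.8%) and in 57.5% of all 32851. It was near 20 genes, 9 of which were lower, a share near the 41.2% of all 34 genes. CACGTG, a palindrome, was in 6 of 38 (15.8%) against 7.2% of all, near Mybbp1a, Nop2, Pes1, Rrn3, Utp20 and Wdr43, of which Wdr43 was lower. A match is only these letters in this window.

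The promoters of the largest falls are those of Nhp2, on the + strand at chr11:51619523-51619822, and of Ebna1bp2, on the + strand at chr4:118620549-118620848. Capitals mark CACCC, which the first lacks and the second holds in 2 copies next to each other.
Nhp2: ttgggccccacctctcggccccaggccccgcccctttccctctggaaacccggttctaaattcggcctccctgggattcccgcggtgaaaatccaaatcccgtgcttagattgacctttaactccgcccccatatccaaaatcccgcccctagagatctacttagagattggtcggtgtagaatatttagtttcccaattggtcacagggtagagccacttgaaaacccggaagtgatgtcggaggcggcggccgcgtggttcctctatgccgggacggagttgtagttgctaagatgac
Ebna1bp2: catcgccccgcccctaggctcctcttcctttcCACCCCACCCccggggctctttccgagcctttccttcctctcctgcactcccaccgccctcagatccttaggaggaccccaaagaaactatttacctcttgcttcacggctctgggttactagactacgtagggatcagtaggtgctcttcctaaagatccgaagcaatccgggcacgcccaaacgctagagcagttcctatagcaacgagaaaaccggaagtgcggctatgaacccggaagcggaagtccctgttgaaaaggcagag

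Windows of 30 bases around CACGTG, in capitals, are given for Nop2 at chr6:125131811-125131840, Pes1 at chr11:3963965-3963994, Rrn3 at chr16:13780472-13780501 and chr16:13780639-13780668, and Wdr43 at chr17:71616220-71616249, all on the + strand. Of these 4 genes Wdr43 was called, and Pes1 was among the few with a positive difference.
Nop2: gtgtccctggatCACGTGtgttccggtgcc
Pes1: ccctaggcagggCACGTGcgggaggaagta
Rrn3, first: gagcgccaaggtCACGTGcacacgcctcta
Rrn3, second: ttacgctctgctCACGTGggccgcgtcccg
Wdr43: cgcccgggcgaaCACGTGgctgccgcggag

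The other genes of the pathway gave a wider picture. Of 142 further ribosome biogenesis genes, 137 were tested, and 28 (20.4%) were lower and 12 (8.76%) higher, with a median difference of -0.14. Their share of lower genes was near that of all tested genes, 21.0%, and their share of higher genes below 25.6%. With the hybridisation controls 0 of the 137 were lower and 92 higher. Of all 11292 tested genes, 280 were lower and 8392 higher at that scaling, a larger share of higher genes.

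Of 12 further RNA polymerase I genes 2 fell and 2 rose. Taf1d, a subunit of the promoter factor SL1, fell by 1.05 on the log2 scale (limma adjusted p = 0.0013) and Cd3eap, a polymerase subunit, fell by 0.56 (limma adjusted p = 0.0056). Ttf1, the termination factor, rose by 1.52 (limma adjusted p = 0.0022) from a WT mean of 6.70, just above the minimum, and Taf1a, another SL1 subunit, by 0.52 (limma adjusted p = 0.014). Subunits of one factor thus differed in sign. Of 11 snoRNP and assembly genes 2 fell, Znhit3 by 0.70 and Znhit6 by 0.36, and Nufip1, a snoRNP assembly factor as they are, rose by 0.39 (limma adjusted p = 0.023, 0.049 and 0.025).

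Small subunit factors outside the 34 split 10 lower and 4 higher of 48. Noc4l fell by 1.02 and Bysl, a factor of late 40S maturation, fell by 0.90 (limma adjusted p = 0.0063 and 0.010), while Bms1, a GTPase of the processome, rose by 1.35 (limma adjusted p = 3.6e-05) and Ddx49 by 0.64 (limma adjusted p = 0.0064). Large subunit factors split 7 lower and 4 higher of 51. Nol12 fell by 0.93 and Surf6 fell by 0.91, while Gtpbp4, a nucleolar GTPase, rose by 0.42 and Spata5 by 0.38. Of 15 genes of the exosome and of rRNA trimming 7 were lower, Exosc7 by a difference of -0.79 and Eri1 by -0.74 (limma adjusted p = 0.0045 and 0.0029) the most, and Xrn2, a 5′ exonuclease, rose by 0.38 (limma adjusted p = 0.019). These directions are at the deposited scaling.

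The other polymerases and the ribosomal proteins allow the nearest comparison. RNA polymerase II subunits had 3 of 7 lower (Polr2a, Polr2i and Polr2j) and 0 higher, with a median of -0.27. RNA polymerase III subunits had 3 of 10 higher, Polr3f by 1.19, Polr3g by 0.45 and Polr3gl by 0.41, and 2 lower, with a median of 0.15. Of the subunits shared by several polymerases 2 of 5 were lower. These counts are at the deposited scaling. With the hybridisation controls 4 of the 7 RNA polymerase II subunits and 8 of the 10 of RNA polymerase III were higher. So were 3 of the 5 shared ones, and 0 of these subunits were lower. Of all 11292 tested genes, 8392 were higher at that scaling. Cytosolic ribosomal proteins had 33 of 43 lower and 2 higher with a median of -0.48, which moved to 0.0064 after quantile normalization. After that normalization 2 of the 43 were lower and 6 higher.

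Cell type markers are given at the deposited scaling. Of 9 erythroblast markers 8 were lower, and their signals summed to between 107170 and 117550 on WT arrays but to between 42107 and 45132 on KO arrays. Markers of proliferating cells were lower for 7 of 8, with sums of 132380 to 141150 and 59958 to 75517, and those of hepatocytes for 6 of 8, with sums of 216900 to 239030 and 134670 to 167910. Markers of early progenitors were higher for 3 of 6, with sums of 6715 to 7442 and 9089 to 10634, of endothelium for 5 of 7 (4882 to 5368 and 6075 to 7451) and of megakaryocytes for 3 of 5 (22690 to 25829 and 24881 to 31698). Among the early progenitor markers Itga2b rose most, by 1.76 on the log2 scale, while Myb and Flt3 had negative differences that were not called. For macrophages 1 of 8 was lower (14081 to 16936 and 9499 to 17351). With other scalings 5 to 9 erythroblast markers were lower, whereas for hepatocytes 0 were lower after quantile normalization and 2 higher with the hybridisation controls, where 1 marker of proliferating cells was lower. With the 75th percentile 2 markers of early progenitors, 2 of endothelium and 2 of megakaryocytes were higher. There 1 of early progenitors and 1 of endothelium were lower. No marker was at 0 on any array. The part of cell composition in the values of the 34 genes was not tested.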

How the data were processed

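Total RNA of E14.5 fetal livers was isolated with Trizol and hybridized to Affymetrix mouse arrays. The authors deposited linear MAS5.0 intensities of 45101 probe sets per array. MAS5 and R 3.0.2 are the tools in the submitters' processing notes, whose MAS5.0 version is not given. Platform annotation gave 34945 probe sets 1 gene symbol and 932 several, and none was named from the latter.

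Intensities were log2-transformed without a pseudocount, and 64 control probe sets were left out. Probe sets entered the test where either genotype's mean exceeded a signal of 100. The test was limma 3.58.1 in R 4.3.3 (lmFit and eBayes, two-sided, genotype as the only term, all 8 arrays). Python 3.11.15 (scipy 1.17.1, numpy 2.4.6, pandas 2.3.3) made the other calculations. The limma fit was first tested on simulated data. Arrays shared at most 1 identical value with each other. The 4 arrays per group are separate embryos, and their number limits the precision.

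The members and lists were chosen with earlier results of these data known, so no test was made over a list. All 34 members are named. Values per array follow the 2 called genes of each step with the largest rise and fall and genes with opposite calls, and the further pathway genes named are the 2 largest called rises and falls per list. Values of Pes1 and Fbl on single arrays, further probe sets, genes named in the polymerase comparison and the 12 pairs of partners were chosen after the values were seen. Promoter letters are from RefSeq. Alternatives tried were scaling to the hybridisation controls (9 probe sets), the poly-A controls (15) or the 75th percentile, quantile normalization, pseudocounts of 16 and 64, other filters, limma's trend and robust options, the methods' t-test (Welch form), the replicate block, leaving out each array, and other ways to represent a gene.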

Additional observations from a re-analysis of the deposited data

Results flagged for a closer look

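Polr1c, a subunit of RNA polymerases I and III, had 1 WT array apart from the others. WT replicate 2 read 11.19 in log2 signal and the other 3 WT arrays 11.29 to 11.31, so that its gap to the nearest array was 0.852 of the range of the group. Of 68 groups of 4 arrays examined, 1 stood out in this way, and chance alone gives about 1 in 20.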

How the results depend on the processing

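The count of 14 lower genes was 6 after quantile normalization, 23 with the 75th percentile, 0 with the hybridisation controls, 3 with the poly-A controls, 7 without a filter on low signal, 6 with the methods' t-test (which called 9414 probe sets in all) and 9 with the mean of a gene's tested probe sets. Of all 11292 tested genes, 2914 were lower after quantile normalization and 4152 with the 75th percentile. With the hybridisation controls 280 of them were lower and 8392 higher, and with the poly-A controls 935 and 3752. The members' share of lower genes was below that of all tested genes after quantile normalization and near it with the poly-A controls. With the 75th percentile it was above. The count of 14 ranged from 8 to 16 when single arrays were left out, and 8 genes (Dkc1, Ebna1bp2, Ncl, Nhp2, Nolc1, Nop56, Npm1 and Wdr75) were called each time. The count of 0 higher genes was 15 with the hybridisation controls, 1 with the poly-A controls, a pseudocount of 64, a filter at a signal of 200, limma's trend option or the methods' t-test, 3 with the mean of probe sets, 5 when a gene was counted by called probe sets of a single direction, and 0 to 1 with single arrays left out. The median of -0.29 was -0.55 with the 75th percentile, 0.48 with the hybridisation controls, -0.083 with the poly-A controls and -0.38 to -0.21 with single arrays left out. By construction, each KO minus WT difference shifts by 0.78 with the hybridisation controls, -0.26 with the 75th percentile and 0.21 with the poly-A controls. For the other settings the cause was not tested.

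The replicate block, for the numbers 2, 3 and 4 that both groups carry, gave 2 lower genes (Dkc1 and Ebna1bp2) and a median of -0.26. Deviations of arrays of the same number correlated at -0.00084, -0.082 and -0.027, so the numbers were not taken to pair the embryos. With the block the difference turned to 0.042 for Gnl3, 0.077 for Nop14 and 0.0047 for Polr1b.

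Differences of single genes changed sign as follows. With the hybridisation controls they were 0.61 for Bop1, 0.013 for Dkc1, 0.41 for Fbl, 0.39 for Gar1, 0.74 for Gnl3, 0.52 for Heatr1, 0.58 for Mybbp1a, 0.30 for Ncl, 0.35 for Nip7, 0.051 for Nolc1, 0.17 for Nop10, 0.77 for Nop14, 0.40 for Nop16, 0.70 for Nop2, 0.15 for Nop56, 0.44 for Nop58, 0.33 for Npm1, 0.70 for Polr1a, 0.67 for Polr1b, 0.60 for Polr1c, 0.51 for Polr1e, 0.67 for Rrn3, 0.73 for Rrp12, 0.53 for Rrp9, 0.28 for Ubtf, 0.56 for Utp20, 0.26 for Wdr12, 0.46 for Wdr43 and 0.20 for Wdr75. With the poly-A controls they were 0.042 for Bop1, 0.17 for Gnl3, 0.0072 for Mybbp1a, 0.20 for Nop14, 0.13 for Nop2, 0.13 for Polr1a, 0.099 for Polr1b, 0.035 for Polr1c, 0.10 for Rrn3 and 0.17 for Rrp12. With quantile normalization they were 0.17 for Gnl3 and 0.072 for Npm1, with the 75th percentile -0.096 for Nob1, and without probe sets ending in _s_at or _x_at 0.0069 for Wdr43. With the mean of probe sets they were 1.88 for Bop1, 0.70 for Heatr1, 0.17 for Mybbp1a, 0.35 for Polr1a and 0.44 for Wdr75. The values of Bop1 and Heatr1 each include a probe set with a WT mean below the minimum signal. Those WT means were 3.16 and 6.53 in log2 signal, so the sizes of the Bop1 and Heatr1 values are not reliable. Leaving out single arrays gave -0.14 to 0.032 for Gnl3, -0.057 to 0.040 for Nop14, -0.19 to 0.0013 for Nop2, -0.19 to 0.035 for Polr1a, -0.27 to 0.029 for Polr1b and -0.18 to 0.073 for Rrp12.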
